A study of Arabidopsis thaliana with 27 samples.

Results

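The Aux/IAA repressors and the GH3 auxin conjugases of Arabidopsis thaliana were followed in dark-grown hypocotyls after UV-B. They were chosen by locus from a table of raw counts, as the 29 Aux/IAA genes and GH3.1 to GH3.6, which makes 35 genes of 32832 loci. The table held 9 groups of 3 libraries each, from 3 genotypes. These were xpf-3, a mutant of the DNA repair endonuclease gene UVH1, uvr8-6, which lacks normal function of UVR8, the gene of the receptor for UV-B, and wild type Columbia-0 (WT). In every group seeds lay on filter paper with 0.5× MS medium and 100 µM gibberellin GA4 in full darkness for 2.5 days. Each genotype then stayed dark as a control, or received 3000 µmol per square metre of UV-B within about 5 min (the low dose) or 30000 µmol per square metre within about 45 min (the high dose), and was returned to darkness. Hypocotyls were cut 6 h after exposure according to the extraction protocol, whereas the title of the series speaks of 2 days. A note with the data assigns WT and xpf-3 to a first sequencing run and uvr8-6 to a second, so genotype and run cannot be told apart wherever uvr8-6 is set against WT.

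Auxin acts by removing repressors. Aux/IAA proteins sit on auxin response factors (ARFs), the transcription factors at auxin-responsive promoters, and bring in TOPLESS corepressors. Auxin joins an Aux/IAA protein to a receptor of the TIR1/AFB family through a short degron in the repressor, which is then degraded and frees the ARF. GH3 enzymes of the group studied here link auxin to amino acids and so lower free auxin. Many Aux/IAA and GH3 genes are themselves switched on by auxin, and several Aux/IAA proteins are known for their part in hypocotyl elongation.

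The degron, through which auxin can have a repressor removed, is not carried by every member of the family. Its core, glycine-tryptophan-proline-proline, was searched for in frame as the codons GGNTGGCCNCCN in the RefSeq coding sequence of each Aux/IAA gene. The core was found in 23 of the 29 genes and was missing from IAA20, IAA30, IAA31, IAA32, IAA33 and IAA34. The coding DNA around it is shown for the members on which the results below turn: IAA6 to IAA28 fell after UV-B, IAA27 and IAA18 rose, and IAA12 passed no test. Capitals mark the core codons, and each line reads from 5′ to 3′ on the coding strand.
IAA6: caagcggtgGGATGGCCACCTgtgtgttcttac
IAA19: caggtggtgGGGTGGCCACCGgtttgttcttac
IAA14: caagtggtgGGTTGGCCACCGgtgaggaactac
IAA17: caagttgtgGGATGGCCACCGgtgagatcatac
IAA3: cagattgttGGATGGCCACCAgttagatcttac
IAA28: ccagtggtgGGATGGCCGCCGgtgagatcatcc
IAA27: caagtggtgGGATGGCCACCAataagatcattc
IAA18: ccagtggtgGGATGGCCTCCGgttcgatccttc
IAA12: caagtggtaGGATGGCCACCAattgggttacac
These stretches lie in exons at chr1:19673320-19673352 (IAA6, minus strand), chr3:5264307-5264339 (IAA19, plus strand), chr4:8349475-8349507 (IAA14, minus strand), chr1:1136938-1136970 (IAA17, plus strand), chr1:1129016-1129048 (IAA3, minus strand), chr5:9033812-9033844 (IAA28, plus strand), chr4:14324651-14324683 (IAA27, minus strand), chr1:19306231-19306263 (IAA18, plus strand) and chr1:1241058-1241090 (IAA12, plus strand) of the RefSeq TAIR10.1 assembly. Over the 23 genes the stretches took 22 distinct forms, because IAA3 and IAA4 share theirs base for base.

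Library totals ran from 4508097 to 15342281 counts. UVR8 stood at 2.78 to 5.15 CPM in the 9 uvr8-6 libraries, against 59.0 to 82.3 CPM in those of WT. UVH1 transcript was higher in xpf-3 than in WT (39.9 to 52.4 against 19.1 to 19.5 CPM in the dark), and the counts do not show where along the gene the reads lie. CPM is the usual depth-scaled count, here with TMM-scaled library totals, and ± gives the SD of the 3 libraries for levels and the standard error of the fit for log2 fold changes. The labels do not say that the libraries of a group came from separate cultures, so a p measures only the spread between these libraries. As a check of tissue, the dark-grown marker PORA was found in every library (79.9 to 1270.4 CPM). Its mean in xpf-3 was 101 ± 19.9 CPM in the dark and 1086 ± 189 CPM after the high dose. The same means were 344 ± 101 and 874 ± 315 CPM in uvr8-6, and 220 ± 191 and 307 ± 37.2 CPM in WT. In WT the high-dose libraries (265 to 334 CPM) lay within the range of the dark ones (86.5 to 439 CPM). Of 3 dark-grown marker genes, PORA among them, 2 were higher and 1 lower at the high dose in xpf-3 and uvr8-6. In WT 1 was higher and 1 lower. The 6 seed storage genes together gave at most 18.0 CPM in any library. The 5 Casparian strip genes of the endodermis, a layer typical of roots, summed after the high dose to 41.8 to 133 CPM in xpf-3, 8.98 to 30.1 CPM in uvr8-6 and 34.9 to 56.1 CPM in WT, against 953 to 1191, 251 to 619 and 797 to 1124 CPM in the dark of the same genotypes. All 5 were lower at the high dose in each genotype. Of 6 stomatal lineage genes, 6 were higher in xpf-3, 5 in uvr8-6 and 0 in WT at the high dose. Their sums after the high dose were 12.9 to 16.1, 21.1 to 28.0 and 2.75 to 8.78 CPM in the same order. In the dark they were 1.06 to 2.57, 8.05 to 14.8 and 2.27 to 10.7 CPM. The 4 shoot apical meristem genes summed to 142 to 173 CPM in dark xpf-3 and 94.8 to 102 CPM after the high dose. The sums were 126 to 148 and 95.7 to 118 CPM in uvr8-6, and 127 to 158 and 109 to 122 CPM in WT. At the high dose 2 of the 3 tested were higher and 1 lower in xpf-3. These counts were 0 and 1 in uvr8-6, and 1 and 1 in WT. Over all tested genes at the high dose, 37.8% were higher and 35.5% lower in xpf-3. The shares were 32.2% and 25.4% in uvr8-6, and 33% and 31.5% in WT. The part of these marker lists in the changes of Aux/IAA and GH3 genes was not tested. In bulk tissue fewer cells of a type and less RNA per cell cannot be told apart. Within groups, uvr8-6 dark replicate 2 was the lowest library for 25 of 32 tested members, xpf-3 dark replicate 1 for 23, WT low-dose replicate 1 for 21 and WT dark replicate 1 for 20.

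In WT hypocotyls kept dark, the levels of Aux/IAA genes spanned a wide range. Per kilobase of exon, IAA7 (AXR2) was the most abundant at 563 ± 132 CPM, followed by IAA17 (AXR3) at 470 ± 64.6, IAA19 (MSG2) at 320 ± 71.1, IAA2 at 311 ± 49.7, IAA16 at 282 ± 51.8, IAA4 at 263 ± 71.1 and IAA9 at 206 ± 20.6 CPM per kilobase (SD, n = 3). From IAA19 to IAA4 each gene lay within the spread of the next. GH3.5 (152 ± 35.8) and GH3.6 (98.7 ± 17.7 CPM per kilobase) led the conjugases, ahead of GH3.3 at 45.6 ± 0.662. At the other end IAA30, IAA31 and IAA27 stood between 1.04 and 1.67 CPM per kilobase. The low-count filter left out 3 members. IAA15 (AT1G80390) had 4 counts, GH3.4 (AT1G59500) had 3 and IAA33 (AT5G57420) had 40 over all 27 libraries. GH3.4 shares 90.0% of its aligned coding sequence with GH3.2, GH3.5 84.1% with GH3.6, and IAA20 80.5% with IAA30, and how shared reads were counted is not given in the sources used here, so the split within these pairs is uncertain.

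In each genotype and at each dose more tested members fell than rose. At the low dose 17 of 32 members were lower and 7 higher in xpf-3, 3 were lower and 0 higher in uvr8-6, and 7 were lower and 1 higher in WT (adjusted p below 0.05, edgeR quasi-likelihood test). Over all 19794 genes the shares lower and higher were 33.9% and 33.4% in xpf-3, 2.88% and 2.63% in uvr8-6, and 12.7% and 12.9% in WT, which makes 67.3%, 5.51% and 25.6% in either direction. At the high dose 20 members were lower and 4 higher in xpf-3, 21 and 5 in uvr8-6, and 17 and 4 in WT. The shares over all genes were then 35.5% and 37.8% in xpf-3, 25.4% and 32.2% in uvr8-6, and 31.5% and 33% in WT, or 73.3%, 57.7% and 64.5% in either direction. In xpf-3 24 members were thus called at each dose. Among the 22 tested Aux/IAA genes with the degron core, 14 were lower and 2 higher at the high dose in xpf-3, 14 and 3 in uvr8-6, and 11 and 2 in WT, with median log2 fold changes of -1.0, -0.59 and -0.33. Among the 5 tested Aux/IAA genes without it, 1 was lower and 2 higher in xpf-3, 3 and 2 in uvr8-6, and 1 and 2 in WT, with medians of 0.61, -1.25 and 0.21. No difference between genes with and without the core was tested. The median log2 fold change of the members at the high dose was -1.0 in xpf-3, -0.74 in uvr8-6 and -0.51 in WT, beside 0.03, 0.09 and 0.03 over all tested genes. In uvr8-6 at the low dose 7 members had an unadjusted p below the threshold and DESeq2 called 4, all lower. That count of 3 became 5 without uvr8-6 dark replicate 2, 0 without uvr8-6 dark replicate 3 and 1 without uvr8-6 low-dose replicate 2.

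**Figure D1:**
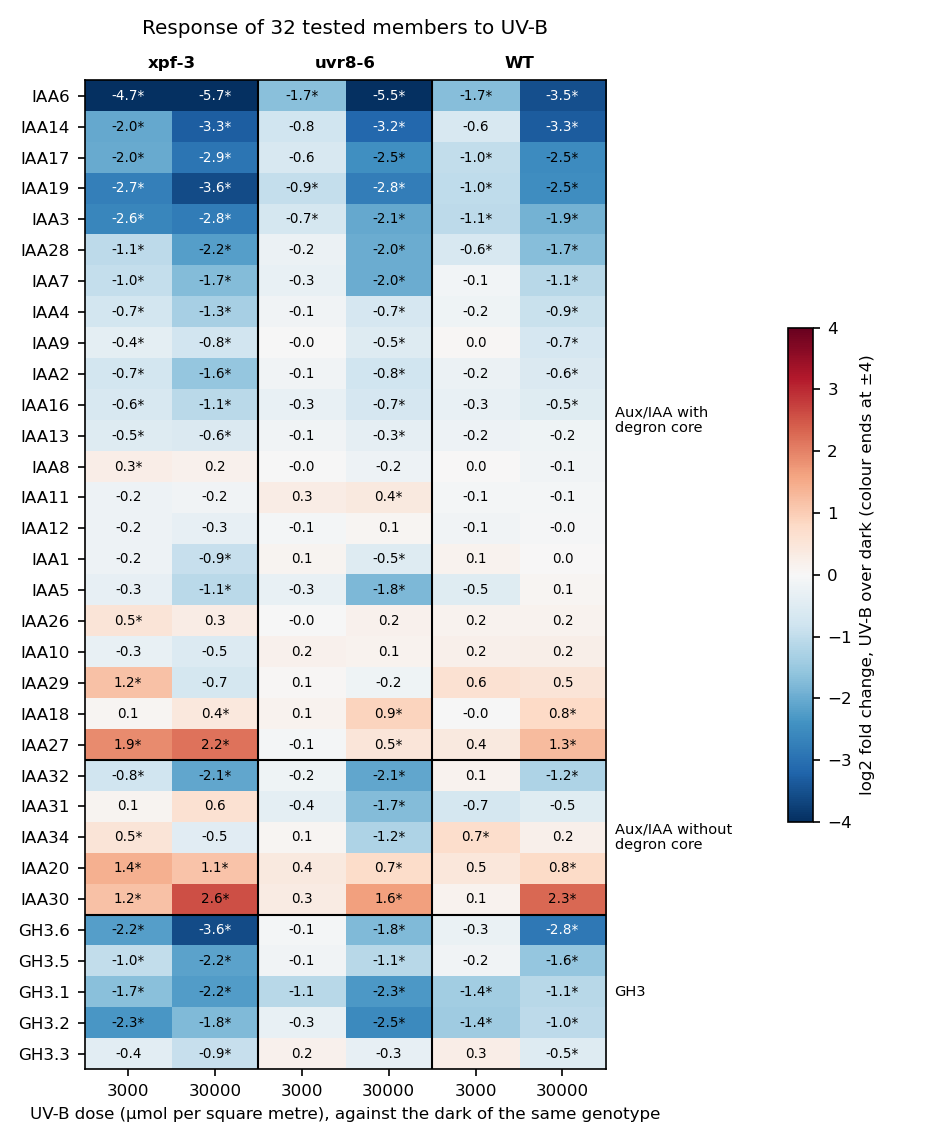
Log2 fold change of the 32 tested members after each UV-B dose against the dark of the same genotype, with columns for xpf-3, uvr8-6 and WT; an asterisk marks adjusted p below 0.05, and the colour scale ends at 4. Blue lines (IAA6 to IAA16, IAA32 and 4 of the GH3 genes) are lower in all 3 genotypes at the high dose, and the red lines IAA18, IAA27, IAA20 and IAA30 are higher.

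Between the doses, 16 members were lower and 1 higher at the high dose than at the low dose in xpf-3 (9% and 10.5% of all genes), 20 and 3 in uvr8-6 (18.5% and 22.3%), and 13 and 4 in WT (23.5% and 22.9%). In either direction the shares of all genes were 19.5%, 40.8% and 46.4%. The count of 17 in xpf-3 became 11 without xpf-3 low-dose replicate 2. Across the 6 comparisons with the dark, IAA3, IAA6 and IAA19 were lower in all of them, and IAA10 and IAA12 passed in none. The calls of IAA3, IAA6 and IAA19 in uvr8-6 at the low dose were the 3 made there, and 0 held in every alternative. IAA34 was the only member called in both directions. At the high dose 16 members were lower in all 3 genotypes and 4 were higher in all 3, beside 21.3% and 24.4% of all genes. One of those 4, IAA27, was called in uvr8-6 in only 3 of 12 alternatives.

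The deepest falls of the Aux/IAA genes with the degron core at the high dose in xpf-3 and WT were those of IAA6, IAA19, IAA3, IAA17, IAA14 and IAA28. IAA6 (SHY1, AT1G52830), known from mutants with altered hypocotyl growth, fell furthest. In xpf-3 it stood at 67.0, 113 and 86.7 CPM in the dark, at 3.29, 3.78 and 3.06 CPM after the low dose and at 0.947, 2.58 and 1.15 CPM after the high dose. The uvr8-6 libraries gave 34.1, 19.9 and 60.1 CPM in the dark, 16.5, 5.68 and 14.0 CPM after the low dose and 0.495, 1.0 and 0.958 CPM after the high dose. Those of WT gave 53.2, 84.8 and 75.7 CPM, then 16.9, 20.1 and 28.0 CPM, then 6.57, 4.52 and 7.28 CPM. No 2 doses overlapped in any genotype, and WT kept the highest level after the high dose. The log2 fold changes at the low dose were -4.72 ± 0.43 in xpf-3 (adjusted p = 5.8e-09), -1.66 ± 0.35 in uvr8-6 (0.0061) and -1.71 ± 0.35 in WT (0.0010), and at the high dose -5.71 ± 0.50, -5.52 ± 0.49 and -3.51 ± 0.40 (largest adjusted p = 1.4e-07). The uvr8-6 call at the low dose was lost without uvr8-6 dark replicate 3, with only the compared groups fitted or with each sequencing run fitted alone (adjusted p = 0.0717 to 0.145, and 0.000413 to 0.145 over all its alternatives).

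IAA19 (MSG2, AT3G15540), which acts with ARF7 in bending and elongation of the hypocotyl, fell in the same 6 comparisons. It stood at 338, 466 and 479 CPM in dark xpf-3, at 58.5, 71.2 and 64.0 CPM after the low dose and at 28.9, 41.0 and 37.1 CPM after the high dose. In uvr8-6 the levels were 250, 173 and 337 CPM, then 163, 99.7 and 133 CPM, then 30.0, 42.2 and 38.6 CPM, and in WT 243, 382 and 344 CPM, then 125, 151 and 207 CPM, then 60.1, 62.2 and 52.7 CPM. After the low dose the xpf-3 libraries thus overlapped those of WT after the high dose. Log2 fold changes at the low dose were -2.73 ± 0.24 in xpf-3, -0.94 ± 0.23 in uvr8-6 and -1.0 ± 0.23 in WT (adjusted p = 3.0e-09, 0.015 and 0.0025). At the high dose they were -3.57 ± 0.26, -2.78 ± 0.25 and -2.47 ± 0.24 (largest adjusted p = 1.0e-08). In uvr8-6 the low-dose call was lost without uvr8-6 dark replicate 3 or low-dose replicate 2, with only the compared groups fitted, or with each run fitted alone (adjusted p = 0.0652 to 0.165, and 0.00201 to 0.165 over its alternatives).

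IAA3 (SHY2, AT1G04240), a repressor known from the hypocotyl and the root meristem, and IAA17 (AT1G04250) lie next to each other on chromosome 1 and fell together. IAA3 stood in xpf-3 at 149, 183 and 193 CPM in the dark, 28.1, 27.6 and 29.4 CPM after the low dose and 19.4, 33.7 and 21.1 CPM after the high dose. In WT it stood at 115, 170 and 149 CPM, 53.9, 68.9 and 86.1 CPM, and 45.9, 35.4 and 35.3 CPM. The xpf-3 doses overlapped each other while both stayed far below the dark, and in WT the 3 levels were separate. IAA3 fell by 2.62 ± 0.22, 0.71 ± 0.21 and 1.05 ± 0.21 on the log2 scale at the low dose in xpf-3, uvr8-6 and WT (adjusted p = 1.4e-09, 0.046 and 0.00072), and by 2.80 ± 0.23, 2.06 ± 0.22 and 1.90 ± 0.22 at the high dose (largest adjusted p = 1.1e-07). The uvr8-6 low-dose call was lost in 7 of 12 alternatives, which were a replicate block, only the compared groups, each run alone, and leaving out uvr8-6 dark replicate 1 or 3 or low-dose replicate 2 or 3 (adjusted p = 0.0528 to 0.381, and 0.0147 to 0.381 over all). IAA17, of which xpf-3 held 645, 779 and 815 CPM in the dark, 185, 207 and 165 CPM after the low dose and 67.0, 137 and 88.9 CPM after the high dose, fell by 2.01 ± 0.21 and 2.93 ± 0.22 there. In WT its levels were 528, 696 and 634 CPM, 297, 283 and 351 CPM, and 135, 101 and 89.5 CPM (-0.99 ± 0.21 and -2.51 ± 0.22), and in uvr8-6 it fell at the high dose (-2.47 ± 0.22) and stood at -0.63 ± 0.21 at the low dose (adjusted p = 0.075).

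IAA14 (SLR, AT4G14550) and IAA28 (AT5G25890), repressors known from lateral root formation, fell with dose as well. IAA14 stood at 32.4, 31.6 and 35.2 CPM in dark xpf-3, 6.36, 12.1 and 6.02 CPM after the low dose and 3.08, 4.80 and 2.01 CPM after the high dose. WT gave 28.8, 38.0 and 38.6 CPM, 16.3, 20.7 and 30.4 CPM, and 3.99, 4.04 and 2.54 CPM. The genotypes thus met at the high dose, where log2 fold changes were -3.29 ± 0.34 in xpf-3, -3.15 ± 0.32 in uvr8-6 and -3.33 ± 0.33 in WT (largest adjusted p = 3.4e-08). At the low dose IAA14 fell in xpf-3 (-2.03 ± 0.29, adjusted p = 2.8e-06) and stood at -0.81 ± 0.27 in uvr8-6 and -0.63 ± 0.27 in WT (0.087 and 0.089). IAA28 fell by 1.06 ± 0.23 and 2.20 ± 0.26 in xpf-3, by 1.97 ± 0.23 at the high dose in uvr8-6, and by 0.64 ± 0.22 and 1.71 ± 0.24 in WT. Its low-dose call in WT (adjusted p = 0.035) was lost without any 1 of the 3 WT dark libraries, without WT low-dose replicate 2 or 3, or without the low-count filter (0.0596 to 0.143, and 0.0142 to 0.143 over its alternatives).

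**Figure D2:**
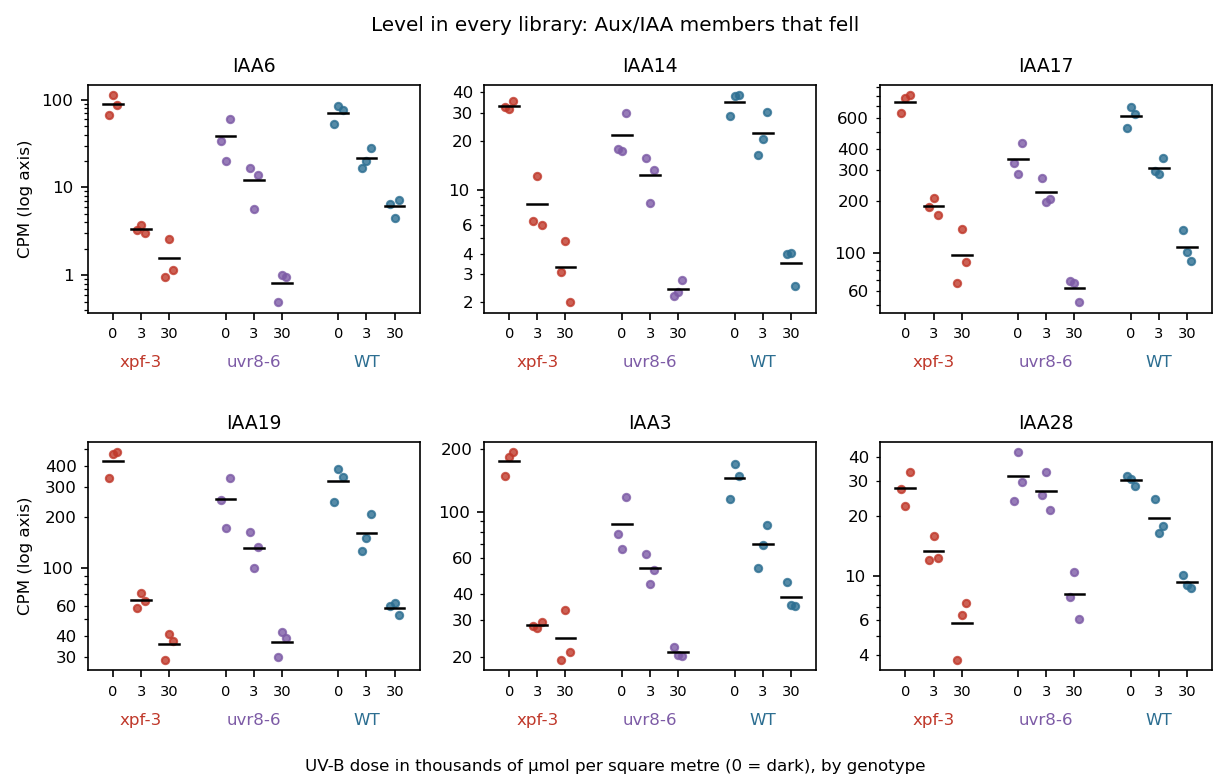
CPM in every library (points, log axis) and group means (bars) for 6 Aux/IAA genes in the dark and after the low and the high dose of UV-B in xpf-3, uvr8-6 and WT. In xpf-3 the low-dose points of IAA6, IAA19 and IAA3 already sit near or below the WT points of the high dose.

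Another 6 degron members fell, with smaller changes at the high dose in xpf-3 and WT. In uvr8-6 at that dose the fall of IAA7 was as deep as that of IAA28 (above). IAA7, the most abundant, stood at 1078, 1294 and 1204 CPM in dark xpf-3, 574, 676 and 591 CPM after the low dose and 288, 486 and 296 CPM after the high dose, against 787, 1253 and 1180 CPM, 726, 950 and 1295 CPM, and 537, 463 and 495 CPM in WT. The WT low-dose libraries overlapped the dark ones, and those of the high dose did not. IAA7 fell at the high dose by 1.74 ± 0.25 in xpf-3, 1.97 ± 0.25 in uvr8-6 and 1.11 ± 0.25 in WT (largest adjusted p = 0.00047), and at the low dose in xpf-3 (-0.96 ± 0.25, adjusted p = 0.0017), while uvr8-6 stood at -0.29 ± 0.24 and WT at -0.12 ± 0.24 there (0.59 and 0.78). IAA2 stood at 377, 494 and 396 CPM in dark xpf-3, 248, 282 and 228 CPM after the low dose and 152, 140.4 and 139 CPM after the high dose, and at 354, 489 and 424 CPM, 296, 349 and 424 CPM, and 281, 272 and 287 CPM in WT. Its 3 levels were separate in xpf-3, while in WT only those of the high dose lay below the dark ones. IAA2, IAA4, IAA9 and IAA16 were also lower at the high dose in all 3 genotypes, with log2 fold changes between -0.50 ± 0.13 (IAA16 in WT) and -1.55 ± 0.15 (IAA2 in xpf-3). Each of these 4 was lower in xpf-3 at the low dose as well (-0.40 ± 0.09 for IAA9 to -0.74 ± 0.15 for IAA2), and none passed at that dose in uvr8-6 or WT. IAA13 fell in xpf-3 at both doses (-0.51 ± 0.11 and -0.58 ± 0.11) and in uvr8-6 at the high dose (-0.35 ± 0.11, adjusted p = 0.0073).

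IAA5 and IAA1 (AXR5) fell at the high dose in both mutants. After the high dose IAA5 stood at 6.86, 11.6 and 8.59 CPM in xpf-3, against 13.3, 23.9 and 20.8 CPM in the dark. In uvr8-6 it stood at 6.29, 5.31 and 6.35 CPM after the high dose, against 24.6, 16.9 and 21.2 CPM in the dark, and in WT at 16, 13.6 and 17.2 CPM after the high dose, against 12.3, 16.9 and 15.5 CPM in the dark. High-dose libraries lay below all dark ones in the mutants and overlapped them in WT. The log2 fold changes were -1.07 ± 0.22 in xpf-3, -1.80 ± 0.21 in uvr8-6 and 0.08 ± 0.20 in WT (adjusted p = 0.00012, 1.4e-07 and 0.76). IAA1 fell by 0.93 ± 0.22 in xpf-3 and by 0.52 ± 0.21 in uvr8-6 and stood at 0.01 ± 0.21 in WT. The uvr8-6 call of IAA1 (adjusted p = 0.037) was lost without uvr8-6 dark replicate 1 or 3 or high-dose replicate 1 or 2 (0.0541 to 0.171, and 0.00063 to 0.171 over its alternatives).

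Other degron members rose, or passed in at most 1 comparison with the dark. IAA27 (PAP2, AT4G29080), named for its binding to phytochrome, stood at 1.07, 0.964 and 1.54 CPM in dark xpf-3, 4.03, 4.76 and 4.44 CPM after the low dose and 5.44, 4.80 and 5.87 CPM after the high dose. In uvr8-6 it stood at 4.5, 4.74 and 3.15 CPM, 3.56, 3.96 and 4.14 CPM, and 6.29, 5.08 and 6.11 CPM, and in WT at 1.84, 1.39 and 1.24 CPM, 2.63, 1.94 and 1.44 CPM, and 4.89, 2.75 and 3.24 CPM. Dark uvr8-6 libraries, from the other sequencing run, overlapped the low-dose xpf-3 ones and lay below those of xpf-3 after the high dose. IAA27 rose by 1.89 ± 0.27 and 2.17 ± 0.27 in xpf-3 (adjusted p = 2.0e-06 and 2.3e-07) and by 1.28 ± 0.26 at the high dose in WT (0.00020). Its high-dose change of 0.50 ± 0.21 in uvr8-6 lay at the threshold and passed in only 3 of 12 alternatives (adjusted p = 0.0400 to 0.234), failing among others without uvr8-6 dark replicate 1 or 3 or high-dose replicate 1 or 3.

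IAA18 (AT1G51950) rose at the high dose in every genotype. Its libraries gave 23.2, 29.2 and 27.8 CPM after the high dose in xpf-3, against 18.2, 21 and 20.6 CPM in the dark. In uvr8-6 they gave 31.9, 36.3 and 37.8 CPM after the high dose, against 20.5, 17.0 and 19.7 CPM in the dark, and in WT 25.9, 36.4 and 41.0 CPM after the high dose, against 18.0, 19.4 and 22.5 CPM in the dark. The ranges were separate in all 3. The log2 fold changes were 0.43 ± 0.15, 0.89 ± 0.14 and 0.79 ± 0.15 (adjusted p = 0.013, 1.4e-05 and 6.1e-05), and the xpf-3 call was lost without xpf-3 dark replicate 1 (0.0566, and 0.00713 to 0.0566 over its alternatives). IAA26 (PAP1), the closest relative of IAA18 with 75.0% coding identity, rose in xpf-3 at the low dose (0.51 ± 0.16, adjusted p = 0.0066) and passed in no other comparison with the dark. IAA29, a target of phytochrome-interacting factors, rose in xpf-3 at the low dose, with 39.7, 36.0 and 43.9 CPM against 16.3, 20.3 and 16.1 CPM in the dark (1.18 ± 0.31, adjusted p = 0.0022), and stood at 13.7, 8.37 and 10.9 CPM after the high dose (-0.71 ± 0.35, 0.073). It was lower at the high than at the low dose there (-1.89 ± 0.34, adjusted p = 0.00056).

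IAA8, IAA10, IAA11 and IAA12 (BDL, the partner of ARF5 in the embryo) each passed in at most 1 comparison with the dark. IAA12 ranged over all libraries from 12.8 to 22 CPM, and its log2 fold changes in the 6 comparisons lay between -0.32 ± 0.15 and 0.07 ± 0.14, the smallest adjusted p being 0.057. IAA10, at 2.13 to 6.06 CPM, also passed in none, with -0.54 ± 0.26 in xpf-3 at the high dose as its largest change (adjusted p = 0.065). IAA8, abundant at 242 to 389 CPM, was called in xpf-3 at the low dose (0.27 ± 0.11, adjusted p = 0.026), and this was lost without xpf-3 dark replicate 2 or 3 or low-dose replicate 3 (0.050 to 0.0849, and 0.00536 to 0.0849 over its alternatives). IAA11 was called in uvr8-6 at the high dose (0.40 ± 0.15, adjusted p = 0.026), a call lost in 8 of 12 alternatives, among them leaving out any 1 of the 3 uvr8-6 dark libraries or uvr8-6 high-dose replicate 3 (0.0510 to 0.161, and 0.0270 to 0.161 over all).

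**Figure D3:**
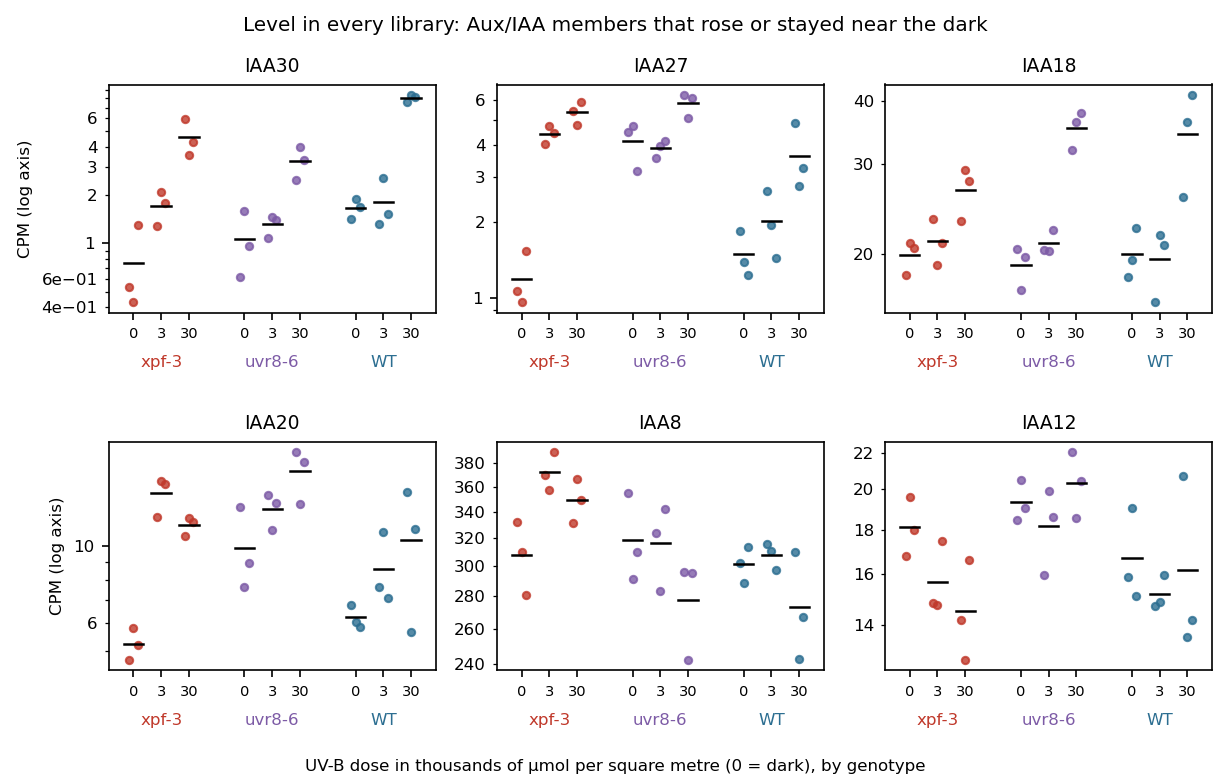
CPM in every library (points, log axes that differ between panels) and group means (bars) for IAA30, IAA27, IAA18, IAA20, IAA8 and IAA12 in the dark and after the low and the high dose of UV-B in xpf-3, uvr8-6 and WT. High-dose points of IAA30 and IAA18 lie above all dark points in each genotype, while those of IAA12 overlap them in uvr8-6 and WT.

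Members without the degron core, which auxin does not destabilise in the usual way, split in both directions. The pair IAA20 (AT2G46990) and IAA30 (AT3G62100) rose. IAA30 stood at 0.535, 0.429 and 1.30 CPM in dark xpf-3, 1.27, 2.07 and 1.78 CPM after the low dose and 5.92, 3.57 and 4.30 CPM after the high dose. In uvr8-6 it stood at 0.617, 1.58 and 0.966 CPM, 1.07, 1.45 and 1.40 CPM, and 2.47, 4.0 and 3.29 CPM, and in WT at 1.42, 1.89 and 1.68 CPM, 1.32, 2.56 and 1.52 CPM, and 7.6, 8.40 and 8.21 CPM. The step came with the high dose, where no library overlapped the dark. The log2 fold changes were 2.58 ± 0.38 in xpf-3, 1.63 ± 0.33 in uvr8-6 and 2.28 ± 0.32 in WT (adjusted p = 2.4e-06, 0.00020 and 1.5e-06). At the low dose IAA30 was called in xpf-3 (1.18 ± 0.41, adjusted p = 0.014), and this was lost without xpf-3 dark replicate 1 or 2 or low-dose replicate 2 (0.0526 to 0.0807, and 0.0017 to 0.0807 over its alternatives).

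IAA20 was called in xpf-3 at both doses. It stood there at 4.70, 5.79 and 5.2 CPM in the dark, 12.1, 15.4 and 15.1 CPM after the low dose and 10.7, 12.1 and 11.7 CPM after the high dose, and in WT at 6.77, 6.06 and 5.84 CPM, 7.64, 10.9 and 7.09 CPM, and 14.3, 5.66 and 11.2 CPM. The WT high-dose libraries overlapped the dark ones through replicate 2. IAA20 rose by 1.44 ± 0.25 and 1.14 ± 0.26 in xpf-3 (adjusted p = 2.4e-05 and 0.00040) and at the high dose by 0.73 ± 0.22 in uvr8-6 (0.0072) and 0.75 ± 0.25 in WT (0.011). The WT call was lost without WT high-dose replicate 1 or with only the compared groups fitted (0.0553 to 0.174, and 0.00079 to 0.174 over its alternatives).

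IAA32 and IAA34, which act in the apical hook and share 57.5% of their coding sequence, went lower at the high dose in uvr8-6. IAA32 had 36.7, 44.5 and 41.2 CPM in the dark, 23.8, 26.0 and 20.1 CPM after the low dose and 9.47, 11.8 and 7.73 CPM after the high dose in xpf-3, and 29.2, 34.2 and 35.2 CPM, 39.2, 32.5 and 37.0 CPM, and 17.4, 13.4 and 11.1 CPM in WT. It fell at the high dose by 2.07 ± 0.20 in xpf-3, 2.06 ± 0.19 in uvr8-6 and 1.23 ± 0.19 in WT (largest adjusted p = 6.5e-06), and at the low dose by 0.81 ± 0.18 in xpf-3 (0.00047). IAA34 fell in uvr8-6 at the high dose (8.76, 4.85 and 11.4 CPM against 22.2, 19.0 and 18.7 CPM in the dark; -1.25 ± 0.22, adjusted p = 4.9e-05). At the low dose it was called higher in xpf-3 (0.51 ± 0.22, adjusted p = 0.048) and in WT (0.69 ± 0.22, 0.021). The first call was lost without xpf-3 dark replicate 2 or 3 or any 1 of the 3 low-dose libraries (0.0651 to 0.152, and 0.0073 to 0.152 over its alternatives), the second without WT dark replicate 2 or 3 or low-dose replicate 1, or with only the compared groups fitted (0.0906 to 0.122, and 0.00286 to 0.122). IAA31, with 0.321 to 4.03 CPM, fell in uvr8-6 at the high dose (-1.74 ± 0.47, adjusted p = 0.0029).

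The promoters of IAA6 and IAA19, which fell together in all 3 genotypes at the high dose, are printed beside that of IAA20, which rose. Each line gives the 250 bases before the annotated gene start, 5′ to 3′ on the strand of the gene, from RefSeq TAIR10.1 at chr1:19673653-19673902 (IAA6), chr3:5263751-5264000 (IAA19) and chr2:19307464-19307713 (IAA20). Capitals mark TGTCTC and TGTCGG, motifs of ARF binding, and CACGTG and CATGTG, E-box motifs of which CACGTG is the G-box, each read on both strands.
IAA6: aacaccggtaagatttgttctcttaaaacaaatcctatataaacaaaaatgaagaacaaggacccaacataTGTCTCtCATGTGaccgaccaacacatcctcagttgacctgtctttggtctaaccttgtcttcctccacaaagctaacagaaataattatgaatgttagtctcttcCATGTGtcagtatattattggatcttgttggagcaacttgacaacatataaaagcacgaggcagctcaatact
IAA19: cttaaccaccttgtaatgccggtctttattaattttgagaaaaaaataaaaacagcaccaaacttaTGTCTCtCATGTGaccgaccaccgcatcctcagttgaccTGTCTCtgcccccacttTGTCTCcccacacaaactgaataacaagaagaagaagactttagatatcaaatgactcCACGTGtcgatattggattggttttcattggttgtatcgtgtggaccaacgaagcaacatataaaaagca
IAA20: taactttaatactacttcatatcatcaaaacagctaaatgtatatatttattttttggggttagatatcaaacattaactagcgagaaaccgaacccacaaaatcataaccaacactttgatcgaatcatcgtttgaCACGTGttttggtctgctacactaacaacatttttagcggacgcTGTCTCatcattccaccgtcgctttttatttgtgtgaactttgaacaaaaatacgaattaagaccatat
IAA6 and IAA19 share an unbroken run of 23 bases, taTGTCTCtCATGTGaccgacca, whose first base lies at -181 and -186 from the gene start. IAA20 has a TGTCTC at -69 and a CACGTG further upstream at -113. TGTCTC thus stood in promoters of members that fell and of members that rose. Over the members, TGTCTC was found in 12 of 35 promoters (34.3%), against 10.9% of 27443 promoters of the same length, TGTCGG in 6 (17.1% against 4.16%), CACGTG in 5 (14.3% against 6.49%) and CATGTG in 8 (22.9% against 11.1%). Of the 16 members that were lower in all 3 genotypes at the high dose, 5 held TGTCTC, 1 TGTCGG, 3 CACGTG and 6 CATGTG. Of the 4 that were higher, 2 held TGTCTC, 1 TGTCGG, 2 CACGTG and 1 CATGTG. Among the 12 other tested members, 5 held TGTCTC, 4 TGTCGG, 0 CACGTG and 1 CATGTG. A match in this window is a description of letters, not a site of binding.

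All 5 tested conjugase genes fell at the high dose in xpf-3 and in WT, and 4 of them in uvr8-6. Over all genes 35.5%, 31.5% and 25.4% were lower at that dose in xpf-3, WT and uvr8-6. The WT calls of GH3.1 and GH3.3 were lost in some alternatives (below). GH3.6 (DFL1, AT5G54510), named for dwarf plants with short hypocotyls when overexpressed, had the most negative change of the 5 at the high dose in xpf-3 and WT. It stood at 196, 281 and 278 CPM in dark xpf-3, 59.7, 52.4 and 52.1 CPM after the low dose and 21.3, 20.9 and 20.3 CPM after the high dose. In uvr8-6 the levels were 122, 114 and 169 CPM, 141, 124 and 123 CPM, and 45.4, 35.3 and 38.3 CPM, and in WT 186, 268 and 234 CPM, 173, 172 and 228 CPM, and 31.3, 41.0 and 23.6 CPM. The low-dose libraries overlapped the dark ones in uvr8-6 and WT and lay far below them in xpf-3. Log2 fold changes were -2.20 ± 0.19, -0.07 ± 0.18 and -0.26 ± 0.18 at the low dose in xpf-3, uvr8-6 and WT (adjusted p = 9.0e-10, 0.89 and 0.31), and -3.59 ± 0.20, -1.77 ± 0.18 and -2.85 ± 0.19 at the high dose (largest adjusted p = 3.9e-08). GH3.5 (WES1, AT4G27260), its close copy, stood at 347, 445 and 411 CPM in dark xpf-3, 203, 208 and 200.1 CPM after the low dose and 93.7, 90.8 and 86.5 CPM after the high dose. The uvr8-6 libraries gave 181, 160.2 and 266 CPM, 206, 148 and 198 CPM, and 79.3, 82.9 and 120.2 CPM, and those of WT 261, 414 and 399.9 CPM, 259.7, 321 and 387 CPM, and 135, 127 and 103 CPM. Here too the low-dose libraries overlapped the dark ones in uvr8-6 and WT, and the 3 levels were separate in xpf-3. The log2 fold changes of GH3.5 were -0.98 ± 0.20 at the low dose in xpf-3 and -2.15 ± 0.21, -1.10 ± 0.20 and -1.56 ± 0.20 at the high dose in xpf-3, uvr8-6 and WT (largest adjusted p = 0.00018).

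GH3.2 (YDK1, AT4G37390) and GH3.1 were the conjugases that fell at the low dose in WT. GH3.2 stood in xpf-3 at 18.7, 43.8 and 36.3 CPM in the dark, 4.14, 8.90 and 6.81 CPM after the low dose and 10.9, 10.3 and 8.02 CPM after the high dose, in uvr8-6 at 30.8, 30.4 and 36.0 CPM, 29.9, 26.1 and 23.9 CPM, and 4.17, 6.93 and 5.69 CPM, and in WT at 28.7, 25.1 and 27.9 CPM, 10.4, 12.2 and 7.89 CPM, and 8.24, 17.0 and 15 CPM. In xpf-3 and WT the libraries of the low and the high dose overlapped, and in uvr8-6 those of the high dose lay below all others. The log2 fold changes were -2.32 ± 0.29 and -1.77 ± 0.29 in xpf-3, -0.28 ± 0.25 (not passed) and -2.53 ± 0.28 in uvr8-6, and -1.43 ± 0.28 and -1.03 ± 0.28 in WT. GH3.1, at 1.29 to 14.2 CPM, fell by 1.68 ± 0.40 and 2.24 ± 0.44 in xpf-3 and by 2.29 ± 0.41 at the high dose in uvr8-6. Its calls in WT (-1.38 ± 0.40 and -1.11 ± 0.40, adjusted p = 0.013 and 0.019) were lost when WT dark replicate 2 was left out at either dose, when low-dose replicate 1 was (0.0652 to 0.0773, and 0.00468 to 0.0773 over the low-dose alternatives) and when high-dose replicate 3 was (0.0576 to 0.0989, and 0.00858 to 0.0989 over those of the high dose). GH3.3 fell at the high dose in xpf-3 (-0.93 ± 0.22, adjusted p = 0.00055), and its call in WT (-0.52 ± 0.21, 0.035) was lost in 7 of 12 alternatives, among them leaving out any 1 of the WT dark libraries or WT high-dose replicate 2 or 3 (0.0503 to 0.105, and 0.00833 to 0.105 over all).

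**Figure D4:**
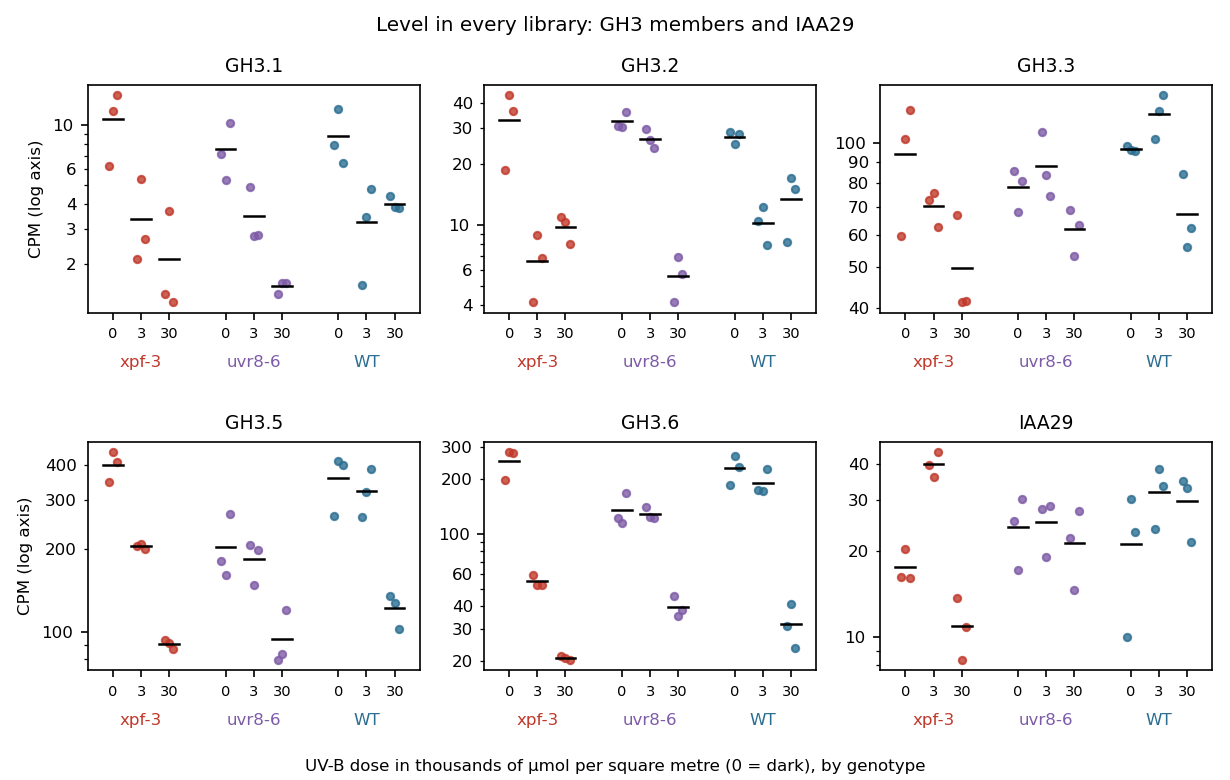
CPM in every library (points, log axes that differ between panels) and group means (bars) for the 5 tested GH3 genes and IAA29 in the dark and after the low and the high dose of UV-B in xpf-3, uvr8-6 and WT. GH3.6 and GH3.5 drop at the low dose in xpf-3 and at the high dose in uvr8-6 and WT, and IAA29 peaks at the low dose in xpf-3.

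Summed over the family, Aux/IAA transcript in xpf-3 was 5178 ± 417 CPM in the dark, 2833 ± 109 CPM after the low dose and 1972 ± 167 CPM after the high dose. In uvr8-6 the sums were 3419 ± 590, 2855 ± 290 and 1736 ± 95.7 CPM, and in WT 4691 ± 787, 3827 ± 645 and 2474 ± 139 CPM (SD, n = 3). In uvr8-6 and WT the low-dose sums overlapped the dark sums, and in no genotype did the high-dose sums do so. The 6 GH3 genes together gave 790 ± 141, 339 ± 13.4 and 173 ± 18.9 CPM in xpf-3, 456 ± 95.2, 431 ± 52.2 and 203 ± 24.7 CPM in uvr8-6, and 720 ± 122, 644 ± 107 and 238 ± 28.4 CPM in WT, in the same order of doses. Both sums weigh genes by their abundance, and in dark WT IAA7 and IAA17 had the highest means in the first and GH3.5 and GH3.6 in the second.

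In the dark, no member differed between xpf-3 and WT. One member, IAA30 (-1.14 ± 0.41, adjusted p = 0.18), had an unadjusted p below the threshold and DESeq2 called 0, while 0.106% of all genes were higher and 0.0606% lower, 0.167% in all. Between uvr8-6 and WT in the dark, 8 members were lower and 3 higher, beside 17.2% and 14.2% of all genes (31.4% in either direction), with run and genotype not separable. IAA27 was higher at 4.5, 4.74 and 3.15 CPM in uvr8-6, against 1.84, 1.39 and 1.24 CPM in WT (1.46 ± 0.25, adjusted p = 0.00028). IAA2 was lower at 227, 227 and 290 CPM in uvr8-6, against 354, 489 and 424 CPM in WT (-0.77 ± 0.15, 0.00067). IAA17 (-0.83 ± 0.21, 0.0046) and GH3.6 (-0.76 ± 0.18, 0.0030) were lower too, and in these 4 genes the dark libraries of the 2 genotypes did not overlap. These 4 calls held in every alternative, while GH3.5 (-0.82 ± 0.20) was lost with only the compared groups fitted (0.0673, and 0.000559 to 0.0673 over its alternatives). The calls of IAA3, IAA6, IAA7, IAA16, IAA20 and IAA31 (-0.90 ± 0.33 for IAA6 to 1.28 ± 0.47 for IAA31) were each lost without at least 1 library (highest adjusted p = 0.0896, 0.209, 0.0987, 0.127, 0.25 and 0.203), and 4 to 7 of the 11 alternatives ended each. Of the 11 calls, 5 were left when WT dark replicate 2 was dropped, and 6 each for WT dark replicate 3 and uvr8-6 dark replicates 1 and 2. Without uvr8-6 dark replicate 2, IAA5 was gained (adjusted p = 0.0397), which makes a count of 7. The Casparian strip genes were also lower in dark uvr8-6 (4 of 5 called; 251 to 619 CPM in all against 797 to 1124 CPM in WT), and their part in these differences was not tested.

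For 11 members the response to the low dose was larger in xpf-3 than in WT. The change in xpf-3 minus the change in WT was tested directly, and 9 members were lower and 2 higher on this scale, beside 17.8% and 11.8% of all genes (29.6% in either direction). GH3.6 differed by -1.94 ± 0.25 on the log2 scale (adjusted p = 1.8e-05), IAA6 by -3.02 ± 0.55 (0.00055), IAA19 by -1.73 ± 0.33 (0.00071), IAA3 by -1.57 ± 0.30 (0.00075), and IAA32 by -0.95 ± 0.26 (0.0087). IAA27 differed in the other direction (1.5 ± 0.39, adjusted p = 0.0069). In all 6, the low-dose fall or rise of xpf-3 was the deeper one, and these calls held in each of 18 alternatives. IAA14 (-1.40 ± 0.40, adjusted p = 0.012) and IAA17 (-1.01 ± 0.29, 0.013) were lost without WT low-dose replicate 3 (0.0706 and 0.0673), with adjusted p of 0.0034 to 0.0706 and 0.00531 to 0.0673 over all their alternatives. IAA9 (-0.45 ± 0.13, adjusted p = 0.015) was lost without WT dark replicate 1 or WT low-dose replicate 3 or with only the compared groups fitted (0.0569 to 0.127, and 0.00208 to 0.127 over all). IAA20 (0.97 ± 0.35, adjusted p = 0.040) and GH3.5 (-0.83 ± 0.28, 0.031) were each lost without 7 of the 12 libraries (0.0526 to 0.105 and 0.0564 to 0.143, and 0.0148 to 0.105 and 0.0135 to 0.143 over all). The libraries were WT dark replicate 1, WT low-dose replicate 3, xpf-3 dark replicate 3 and xpf-3 low-dose replicate 3 for both, with WT low-dose replicate 1, xpf-3 dark replicate 1 and xpf-3 low-dose replicate 2 for IAA20 and WT low-dose replicate 2, xpf-3 dark replicate 2 and xpf-3 low-dose replicate 1 for GH3.5. The count of 11 became 6 without WT low-dose replicate 3.

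At the high dose the response of xpf-3 was further below that of WT in 5 members and above it in 0, beside 4.13% and 5.21% of all genes (9.34% in either direction). They were IAA2 (-0.96 ± 0.21, adjusted p = 0.013), IAA5 (-1.14 ± 0.30, 0.022), IAA19 (-1.10 ± 0.33, 0.042), IAA6 (-2.20 ± 0.68, 0.046) and IAA16 (-0.57 ± 0.18, 0.047). None of the 5 held in every alternative. The count became 0 without WT dark replicate 1, 1 without WT high-dose replicate 2 or xpf-3 dark replicate 2 or 3, 3 without WT high-dose replicate 1 or xpf-3 high-dose replicate 1 or 3, and 9 without WT dark replicate 2. Adjusted p reached 0.0517 for IAA2 (from 0.000424), 0.0877 for IAA5 (from 0.00647), 0.148 for IAA19 (from 0.0127), 0.141 for IAA6 (from 0.00437) and 0.171 for IAA16 (from 0.013) over the alternatives.

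**Figure D5:**
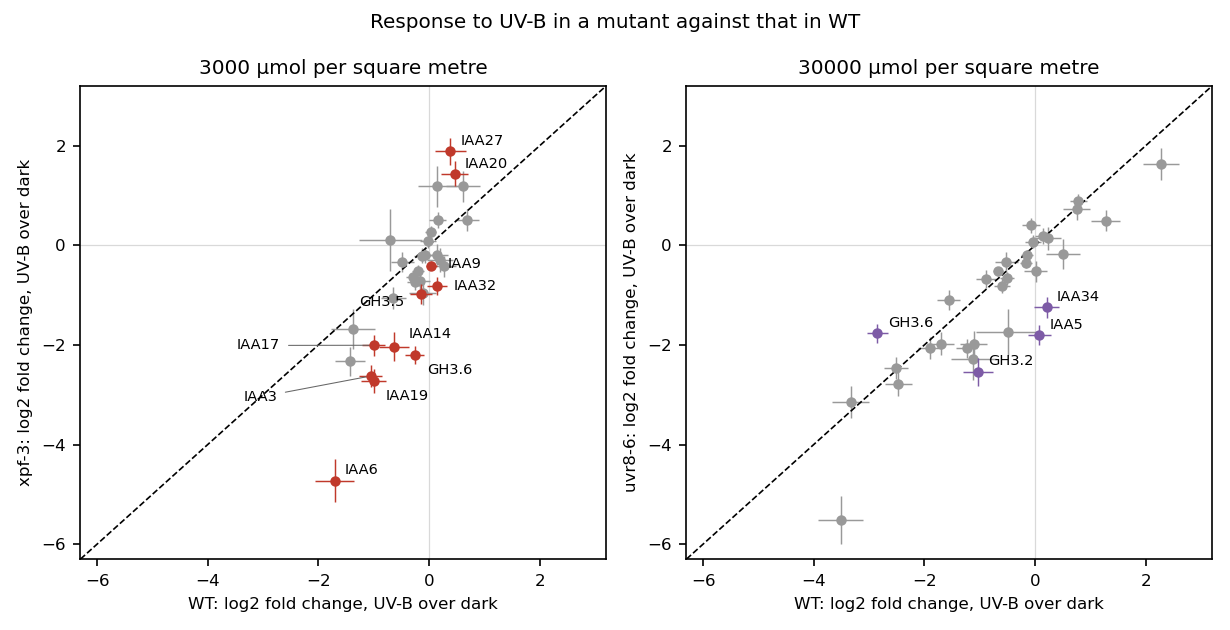
Log2 fold change of each tested member after UV-B in a mutant (vertical axis) against that in WT (horizontal axis), with standard errors: xpf-3 at the low dose on the left, uvr8-6 at the high dose on the right. Coloured, named points passed the test of the difference; the dashed line marks equal responses, and 9 of the 11 named xpf-3 points lie below it.

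For uvr8-6 no member responded differently from WT at the low dose. GH3.2 alone (1.14 ± 0.37, adjusted p = 0.24) had an unadjusted p below the threshold, DESeq2 called 0, and 0.53% of all genes were lower and 0.258% higher, 0.788% in all. At the high dose 3 members were lower and 1 higher on the scale of the difference, beside 3.73% and 4.48% of all genes (8.21% in either direction). The response of IAA5 was the more negative one in uvr8-6 (-1.88 ± 0.29, adjusted p = 0.00051), and this call held in every alternative. IAA34 (-1.46 ± 0.31, adjusted p = 0.0062) and GH3.6 (1.08 ± 0.26, 0.012) were lost with only the compared groups fitted (0.0585 and 0.0721, with 0.00024 to 0.0585 and 0.00396 to 0.0721 over all alternatives). The fall of GH3.6 was shallower in uvr8-6 and began from a lower dark level (above). Its high-dose libraries in uvr8-6 overlapped those of WT. GH3.2 (-1.5 ± 0.39, adjusted p = 0.020) was lost without WT dark replicate 2, WT high-dose replicate 2 or 3 or uvr8-6 high-dose replicate 1 (0.0506 to 0.0719, and 0.0038 to 0.0719 over all). Each difference between uvr8-6 and WT compares changes measured within 1 run each, and run and genotype still cannot be told apart.

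In 3 places a pair of Aux/IAA genes lies head to head within 30 kb. IAA3 and IAA17, 6388 bases apart on chromosome 1, both fell in WT at each dose (above). IAA2 and IAA7, 12510 bases apart on chromosome 3, both fell at the high dose in every genotype. IAA1 and IAA14, 10732 bases apart on chromosome 4, both fell at the high dose in xpf-3 and uvr8-6. In WT at the high dose IAA14 fell by 3.33 ± 0.33 on the log2 scale while IAA1 stood at 66.6, 49.3 and 53.4 CPM, against 39.3, 68.3 and 61.0 CPM in the dark (0.01 ± 0.21, adjusted p = 0.97). Whether members of a pair differ was not tested.

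Other genes of the pathway were counted from 8 lists holding 70 loci. Of the 17 SAUR genes, early auxin-response genes that act in cell expansion, 15 were lower at the high dose in xpf-3, in uvr8-6 and in WT and 0 higher, with median log2 fold changes of -4.04, -3.60 and -2.84. SAUR19 stood at 0.710, 1.48 and 0.573 CPM after the high dose in xpf-3, against 18.7, 32.5 and 25.1 CPM in the dark, and at 2.19, 1.45 and 1.39 CPM in WT, against 15, 25.6 and 17.9 CPM in the dark. Those on chromosome 1 form a cluster of close copies, and SAUR19 lies among neighbouring SAUR loci on another chromosome. The split of reads within either set is uncertain. At the low dose 15, 0 and 10 SAUR genes were lower in xpf-3, uvr8-6 and WT, and 1, 0 and 0 were higher. The counts of these lists stand beside the shares of all genes, which at the high dose were 35.5% lower and 37.8% higher in xpf-3, 25.4% and 32.2% in uvr8-6, and 31.5% and 33% in WT, and at the low dose 33.9% and 33.4%, 2.88% and 2.63%, and 12.7% and 12.9% in the same order.

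The 6 receptor genes of the TIR1/AFB family were all lower in xpf-3 at both doses and in WT at the high dose, and 5 of them in uvr8-6 at the high dose. TIR1 fell in these by 0.73 ± 0.09 and 0.96 ± 0.09 in xpf-3, 0.38 ± 0.09 in uvr8-6 and 0.96 ± 0.09 in WT. Among 15 ARF genes, 3 were higher and 5 lower in xpf-3, 2 and 5 in uvr8-6, and 3 and 6 in WT at the high dose. ARF5 (MP), an activator, rose by 1.78 ± 0.16, 0.89 ± 0.14 and 1.68 ± 0.15, and ARF10, a repressor, fell by 2.76 ± 0.21, 1.44 ± 0.19 and 1.83 ± 0.20. Of 5 corepressor genes, TPR3 rose at both doses in all 3 genotypes (0.61 ± 0.13 in uvr8-6 at the low dose to 1.27 ± 0.13 in WT at the high dose), while TPL, TPR1 and WSIP2 (TPR4) fell in xpf-3 at both doses and in WT at the high dose.

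Genes that make or store auxin were also counted. Of 7 tested auxin synthesis genes (of 14), 1 was higher and 4 lower in xpf-3, 2 and 2 in uvr8-6, and 0 and 3 in WT at the high dose. YUC8, a flavin monooxygenase of the last step, fell by 3.46 ± 0.35, 2.63 ± 0.32 and 1.77 ± 0.31 in these. GH3.17, a conjugase outside the GH3.1 to GH3.6 set that prefers glutamate, fell by 3.66 ± 0.24 and 3.44 ± 0.24 in xpf-3, 0.92 ± 0.21 and 3.26 ± 0.23 in uvr8-6, and 1.14 ± 0.21 and 3.33 ± 0.24 in WT at the low and the high dose. ILL6, of the amidohydrolase family that splits conjugates, fell by 3.02 ± 0.23 and 3.59 ± 0.24, 1.0 ± 0.21 and 2.94 ± 0.23, and 1.03 ± 0.21 and 3.48 ± 0.24 in the same order. GH3.17 and ILL6 thus fell in the same libraries. Of 4 genes of this hydrolase family, 1 was higher and 3 lower at the high dose in xpf-3. In uvr8-6 and in WT 1 was higher and 2 lower. IAR3, another hydrolase, rose at the high dose by 0.58 ± 0.17 in xpf-3, 0.91 ± 0.17 in uvr8-6 and 0.86 ± 0.17 in WT. Of 3 GH3 genes that act on other hormones, JAR1, which conjugates jasmonate, fell at the high dose in all 3 genotypes (-0.80 ± 0.08, -0.34 ± 0.08 and -0.75 ± 0.08), and PBS3, of salicylate synthesis, stood at 16.3 ± 3.57, 8.0 ± 3.63 and 6.00 ± 1.98 CPM after the high dose, against 0, 1 and 0 counts over the dark libraries of each genotype. Of 3 tested genes (of 6) of other auxin inactivation, 0 were higher and 1 lower at the high dose in xpf-3 and in uvr8-6, and 1 and 2 in WT.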

How the data were processed

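Libraries were built with the TruSeq stranded kit from hypocotyl RNA, per the labels' protocols. The authors deposited raw counts per locus. Of 32832 loci, 26893 had a count in any of 27 libraries. Per the submitters' processing notes, FastQC, Trimmomatic, HISAT2 and DESeq2 were used, with no versions. The sources used here name neither the read counter nor the genome build. A deposited table of normalised values was not used.

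Groups came from the labels. The 9 groups entered 1 fit of edgeR's quasi-likelihood model (version 4.0.16, under R 4.3.3 with limma 3.58.1). It used TMM factors, the default low-count filter (19794 genes kept), robust dispersion and 18 residual degrees of freedom. Tests were two-sided, with Benjamini-Hochberg adjustment over all tested genes and a threshold of 0.05. Rose, fell, higher and lower mean that this was passed. A difference of responses subtracts WT's change from that of the mutant. SEs are the size of the log2 fold change divided by the square root of F. CPM used TMM-scaled totals. The fit was tested on simulated data.

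All members are accounted for. The text names those that passed, by role, and gives values per library for most of those with the smallest adjusted p and for others on which a result turns. Members, pathway lists and marker lists were chosen with earlier results of these data known. Alternatives were DESeq2 (1.42.0), its size factors, no low-count filter, only the compared groups, a replicate block and each library left out. Each sequencing run fitted alone was added after seeing the data. Deviations of libraries of equal replicate number correlated in the 3 dose comparisons of uvr8-6 (lowest correlation 0.156) and in WT at the low dose (0.133). Libraries of unlike number reached 0.285 in WT at the low dose, and 0.196 and 0.173 in uvr8-6 at the low and the high dose. A pairing by number is thus not shown there. Equal-numbered libraries all correlated more than unlike ones between the doses in uvr8-6 (lowest 0.215 against 0.0768). The same held in xpf-3 at the high dose (0.0363 against 0.0154). The labels do not say what a number marks. Coding sequences and promoters were read from RefSeq TAIR10.1, to which 32546 loci matched, and identities come from global alignments of the longest coding sequences. The second motif of the repressors, which binds corepressors, was not searched for.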

Additional observations from a re-analysis of the deposited data

Results flagged for a closer look

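The following members responded differently in a mutant and in WT by a direct test of that difference (change in the mutant minus change in WT, log2 scale, edgeR, adjusted p below 0.05). For xpf-3 at the low dose the differences were -3.02 for IAA6, -1.94 for GH3.6, -1.73 for IAA19, -1.57 for IAA3, -1.40 for IAA14, -1.01 for IAA17, -0.95 for IAA32, -0.83 for GH3.5 and -0.45 for IAA9, and 1.5 for IAA27 and 0.97 for IAA20. At the high dose they were -2.20 for IAA6, -1.14 for IAA5, -1.10 for IAA19, -0.96 for IAA2 and -0.57 for IAA16. For uvr8-6 at the high dose they were -1.88 for IAA5, -1.50 for GH3.2 and -1.46 for IAA34, and 1.08 for GH3.6. In the last set the sequencing run changes with the genotype. In the order given, 6 of 11, 0 of 5 and 1 of 4 of these calls held in every alternative. Over all genes 29.6%, 9.34% and 8.21% were called in either direction in the same comparisons. With 3 libraries per group no single library was tested for standing apart.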

How the results depend on the processing

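Of 194 calls of members over the 15 comparisons, 143 held in every alternative and 0 changed direction. Counts of called members moved by over 1.5 times in these cases. For the response difference of xpf-3 at the high dose (5 members), DESeq2 called 9, no low-count filter 2, only the compared groups 3 and each sequencing run alone 8. Uvr8-6 at the low dose (3) had 0 with only the compared groups and 0 with its run alone. With only the compared groups, dark uvr8-6 against dark WT (11) had 5 and the response difference of uvr8-6 at the high dose (4) had 2. Leaving out 1 library at a time gave 21 to 25 called members in xpf-3, 0 to 5 in uvr8-6 and 6 to 10 in WT at the low dose, 24 to 26, 23 to 26 and 19 to 21 at the high dose, and 11 to 16, 17 to 23 and 15 to 18 between the doses. It gave 0 to 0 and 5 to 13 for dark xpf-3 and dark uvr8-6 against WT, 6 to 13 and 0 to 9 for the response differences of xpf-3 at the low and the high dose, and 0 to 0 and 3 to 6 for those of uvr8-6. The replicate block moved the members' counts by at most 1: IAA3 was lost in uvr8-6 at the low dose (adjusted p = 0.0528, 2 members left), and IAA2 between the doses in WT (0.0452), IAA14 between dark uvr8-6 and WT (0.0476) and IAA1 in the high-dose response difference of xpf-3 (0.0428) were gained. IAA31 had no value in 3 comparisons with only the compared groups fitted.

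Counts over all genes also moved. Dark xpf-3 against dark WT (33 genes) had 453 with DESeq2, 67 with the block, 20 with the run alone, 1 with only the compared groups and 14 to 63 without 1 library. With only the compared groups, WT at the low dose (5064) had 3023, uvr8-6 at the low dose (1090) 661, dark uvr8-6 against WT (6223) 2616, and the response differences of xpf-3 at the high dose (1849) 732 and of uvr8-6 at the low and the high dose (156 and 1625) 53 and 602. DESeq2 gave 263 for the low-dose response difference of uvr8-6. Leaving out 1 library moved the response difference of xpf-3 at the high dose to between 177 (without WT dark replicate 1) and 1082 (236 without WT high-dose replicate 2) and that at the low dose (5854) to 3357 without WT dark replicate 1 and 3885 without WT low-dose replicate 3. The response differences of uvr8-6 moved to between 57 and 318 at the low dose and between 896 and 997 at the high dose. Uvr8-6 at the low dose moved to 410 without its dark replicate 3 and 513 without its low-dose replicate 2, dark uvr8-6 against WT to between 3668 and 4022, and xpf-3 between the doses (3855) to 2448 without low-dose replicate 2. Members below about 3 CPM rest on few counts per library, and changes of the size of the SEs given were not detectable by these tests.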
